A study of Mus musculus with 30 samples.

Results

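Memory CD8+ T cells that had been stimulated together with naive CD8+ T cells were compared with memory cells stimulated by themselves, 18 h after the start of stimulation. The 6 arrays were all arrays that the titles give as memory (TMem) mix at 18 h and TMem alone at 18 h, 3 of each, out of 30 arrays in 10 groups of 3, and every gene of the arrays was tested. TMem cells were CD8+ T cells of the Pmel-1 strain (Pmel-1 Tg, a T cell receptor transgene, congenic marker Ly5.2) that had been differentiated in vitro, and naive (TN) cells came from Pmel-1 mice with the marker Ly5.1. Per the labels, all mice were C57BL/6, female, adult and 6-12 weeks old, and the tissue was spleen. TMem mix cells were stimulated in the presence of TN cells and TMem alone cells without them. Both groups were stimulated with anti-CD3, anti-CD28 and IL-2, and both were sorted by flow cytometry before RNA was taken. The same holds for the TN mix and TN alone groups at 18 h and for the TMem groups at 96 h, which are used here for comparison. TMem cells at 0 h were sorted without stimulation. All TMem cells were made in culture, so they stand for memory cells differentiated in vitro and not for memory cells of an immunised animal. The question behind the comparison is what the presence of naive cells does to memory cells at this time.

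Memory CD8+ T cells keep the chromatin and surface receptors of an earlier activation, and on renewed signals through the receptor and CD28 they quickly make cytokines and cytotoxic granules. Granzymes are proteases that such granules carry into target cells, and the receptors for IL-2 and IL-12 set how strongly activated CD8+ T cells divide and acquire effector functions. Activated T cells also raise glucose uptake and glycolysis, which are controlled in part by the hypoxia-inducible factor HIF-1.

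The values are log2 probe set values of Affymetrix mouse gene arrays as deposited, and 19938 genes were tested. A difference is TMem mix minus TMem alone unless stated otherwise, on the log2 scale, with n = 3 arrays per group. A gene was called where limma gave an adjusted p under 0.05 (Benjamini-Hochberg over all genes, 1 fit of all 30 arrays), and intervals are 95% intervals of that fit. Near background means that a group's mean was under the average lower quartile of its arrays, which was 5.91 in TMem mix and 5.85 in TMem alone. The true difference of such a gene may be larger than the measured one. The design text describes biological repeats in triplicate, and it does not say whether TMem mix and TN mix samples came from the same wells. P-values measure the spread between these samples, and an exact permutation test of 3 against 3 arrays cannot go below p = 0.1. The 6 arrays were alike, with correlations of 0.994 to 0.997 across genes between any pair. The spread within groups was larger at 0 h: the median SD of a gene was 0.16 in TMem alone at 0 h, against 0.09 in TMem mix and 0.10 in TMem alone at 18 h. Since mean levels of sorted populations were measured, fewer cells with a transcript and less of it per cell cannot be told apart.

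Few transcripts of memory cells were called as changed by mixing with naive cells at 18 h. Of the 19938 genes, 6 were called (0.0301%), all lower in TMem mix: the granzymes Gzmd and Gzme, the IL-12 receptor chain Il12rb2, the adhesion regulator Cytip, the linker histone H1f2 and Tcta. No gene was called higher by limma in this fit. With so small a share called, 0 called genes on a list do not set that list apart from all genes. Other limma fits gave 18 higher and 82 lower with array weights, 3 and 38 without the 0 h arrays, 1 and 35 with the 6 arrays only, and 1 and 6 with quantile normalization. Without TMem mix replicates 1 or 2 or TMem alone replicates 2 or 3 the number called lower was 1 or 2. At an unadjusted p under 0.05 there were 604 genes, 329 higher and 275 lower. This is a smaller share of the 19938 genes than the 0.05 that chance alone would give. The count of 604 therefore cannot decide whether further genes changed. The fit of all arrays may thus be too strict for this comparison, and its number of called genes too low. The 0 h arrays, whose spread was wider, entered the SE of this fit. The typical difference was small, with a median size of 0.07 and 95% of genes below 0.22, and only Gzmd and the histone gene H3c15 differed by at least 1. The 95% interval lay within 1 of zero for 99.8% of genes and within 0.5 for 92.6%. In the same fit TN mix differed from TN alone at 18 h in 2881 genes (14.4%, 1257 higher and 1624 lower), or 1897 without TN alone replicate 2. With each array centred on its median, the split in TN was 1701 higher and 1127 lower, and in TMem 0 higher and 10 lower.

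Gzmd and Gzme belong to a cluster of granzyme genes on chromosome 14 and encode serine proteases of cytotoxic granules that are made late after activation. Their sequences before the start are shown because the genes are near-copies that were lower together. The 250 bases before the start of each (RefSeq, GRCm38.p6, minus strand) lie at chr14:56132594-56132843 for Gzmd and chr14:56120626-56120875 for Gzme. In a global alignment 238 positions were identical over an aligned length of 251 (94.8%), and capitals mark the 12 bases of each gene without an identical partner.
Gzmd: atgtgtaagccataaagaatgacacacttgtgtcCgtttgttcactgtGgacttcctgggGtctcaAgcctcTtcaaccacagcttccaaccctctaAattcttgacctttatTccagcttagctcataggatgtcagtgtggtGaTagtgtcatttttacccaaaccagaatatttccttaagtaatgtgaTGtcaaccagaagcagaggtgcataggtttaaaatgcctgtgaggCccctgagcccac
Gzme: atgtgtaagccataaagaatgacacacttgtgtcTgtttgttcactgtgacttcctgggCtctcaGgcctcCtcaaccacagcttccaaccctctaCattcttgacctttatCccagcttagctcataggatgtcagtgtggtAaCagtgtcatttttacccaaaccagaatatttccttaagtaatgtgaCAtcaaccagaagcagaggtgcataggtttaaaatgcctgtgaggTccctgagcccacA
By the same alignment the stretch of Gzmd was 81.3% identical to that of Gzmc, 80.1% to Gzmg, 75.0% to Gzmf and 48.2% to Gzmb.

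Gzmd lay at 5.68, 5.73 and 6.07 in TMem mix and at 6.71, 7.19 and 6.87 in TMem alone. Every mix array was below every alone array. Gzmd fell by 1.10 (SE 0.19, 95% interval -1.49 to -0.70, adjusted p = 0.0164). Its mean of 5.83 in TMem mix was near background, so the true fall may be larger than this estimate. Gzme lay at 6.59, 6.86 and 6.65 in TMem mix and at 7.41, 7.67 and 7.64 in TMem alone. The groups again did not overlap, and Gzme fell by 0.87 (SE 0.14, interval -1.16 to -0.58, adjusted p = 0.0091). Both genes stood far higher later: at 96 h Gzmd stood at 11.01 in TMem mix and 11.23 in TMem alone, and Gzme at 11.28 and 11.45, without a call between mix and alone. At 0 h the mean of Gzmd was 4.73 and that of Gzme 5.83, near background. In TN cells at 18 h the means were 4.58 in mix and 4.55 in alone for Gzmd and 5.91 and 5.87 for Gzme, at or near background, and the effect of mixing differed between TMem and TN (Gzmd -1.13, adjusted p = 0.0107; Gzme -0.92, adjusted p = 0.0045). At these TN levels a fall could hardly have been measured. Probes can bind transcripts of both near-copies, so the signals of Gzmd and Gzme may not be separate. The call of Gzmd was lost without TMem mix replicates 1 or 2 or TMem alone replicates 2 or 3 (adjusted p over 17 alternatives 6.91e-04 to 0.212). That of Gzme was lost without TMem mix replicates 1 or 3 or TMem alone replicates 2 or 3, and in a fit of the 12 arrays at 18 h (adjusted p 6.84e-04 to 0.122).

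The other granzymes and granule genes were not called. Of the 19 measured cytotoxic genes 2 were called lower and 0 higher. In 8 of them the mix arrays were all below the alone arrays (42.1%), against 4.67% of all genes, and in 0 all above, against 7.43% of all genes. The median difference of the list was -0.13, against 0.03 over all genes, and stayed between -0.17 and -0.11 over the 17 alternatives. Gzmc, the neighbouring granzyme, lay at 7.90, 7.91 and 8.15 in TMem mix and 8.26, 8.53 and 8.45 in TMem alone (difference -0.43, interval -0.88 to 0.02). Gzma differed by -0.40 (interval -0.83 to 0.02), the death ligand Fasl by -0.38 (-0.81 to 0.05) and Tnfsf10, which encodes the death ligand TRAIL, by -0.19 (-0.36 to -0.03). Granzyme B (Gzmb), the main granzyme of early effector cells, lay at 13.04, 13.08 and 13.02 in TMem mix and 13.17, 13.15 and 13.14 in TMem alone. Its groups did not overlap, and the difference was -0.11 (interval -0.27 to 0.06). Perforin (Prf1), which opens the target cell's membrane, differed by -0.09 (interval -0.38 to 0.21).

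Il12rb2 encodes the signalling chain of the IL-12 receptor, through which activated CD8+ T cells are driven to make interferon gamma. It lay at 10.56, 10.65 and 10.84 in TMem mix and 11.38, 11.28 and 11.40 in TMem alone. All mix arrays were lower, and Il12rb2 fell by 0.67 (SE 0.12, interval -0.91 to -0.43, adjusted p = 0.0164). In TN cells at 18 h it rose with mixing, with TN alone at 10.99, 11.13 and 11.10 and TN mix at 11.53, 11.56 and 11.54 (0.47, adjusted p = 0.0049). In TMem cells at 96 h it also rose, from 10.70, 10.61 and 10.76 to 11.21, 11.29 and 11.16 (0.53, adjusted p = 0.0135). The effect of mixing in TMem minus that in TN at 18 h was -1.14 (adjusted p = 3.27e-05), and the effect in TMem at 96 h minus that at 18 h was 1.20 (adjusted p = 3.54e-04). Il12rb2 lost its call at 18 h without TMem mix replicates 1 or 2 and without any of the 3 TMem alone replicates (adjusted p over the alternatives 3.58e-06 to 0.212). Stat4, the factor that IL-12 activates, differed by -0.17 at 18 h (interval -0.33 to -0.01, not called) and rose by 0.58 with mixing at 96 h.

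Cytip binds the integrin regulator cytohesin in lymphocytes. It lay at 9.44, 9.41 and 9.49 in TMem mix and 9.96, 10.002 and 9.91 in TMem alone, a fall of 0.51 (SE 0.08, interval -0.67 to -0.35, adjusted p = 0.0059). Cytip fell with mixing in TN cells as well, from 10.19, 10.20 and 10.23 to 9.61, 9.44 and 9.64 (-0.64, adjusted p = 1.04e-06). The difference of these effects was 0.13 (interval -0.09 to 0.36, adjusted p = 0.591). The effect in TMem at 96 h minus that at 18 h was 0.79 (adjusted p = 4.50e-04), with a difference of 0.28 at 96 h that was not called. The call at 18 h was lost without TMem mix replicates 1 or 2 or TMem alone replicate 2 (adjusted p 3.58e-06 to 0.063).

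Tcta, named for a chromosome translocation of T cell leukaemia, had the smallest adjusted p. It lay at 7.93, 7.84 and 7.89 in TMem mix and 8.66, 8.75 and 8.77 in TMem alone, a fall of 0.84 (SE 0.07, interval -0.99 to -0.69, adjusted p = 1.95e-07), which was called in all 17 alternatives (adjusted p up to 9.37e-04). It was the TMem alone arrays that stood apart: the means of Tcta were 7.96 in TMem at 0 h, 7.82 and 7.93 in TMem mix and alone at 96 h, and 8.12 and 8.10 in TN mix and alone at 18 h. Only unstimulated TN cells, at 9.27, had a higher mean. The effect of mixing in TMem minus that in TN was -0.86 (adjusted p = 3.36e-06), and the effect in TMem at 96 h minus that at 18 h was 0.73 (adjusted p = 4.50e-04).

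H1f2 encodes a linker histone. It lay at 8.29, 8.46 and 8.64 in TMem mix and 9.21, 9.20 and 9.13 in TMem alone, a fall of 0.72 (SE 0.12, interval -0.97 to -0.46, adjusted p = 0.0164). In TN at 18 h the difference was -0.35 (adjusted p = 0.0627), and the difference of the effects was -0.37 (interval -0.73 to -0.01, adjusted p = 0.283). The call was lost without TMem mix replicates 1 or 2, without any of the 3 TMem alone replicates and in a fit of the 12 arrays at 18 h (adjusted p 1.53e-05 to 0.236).

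**Figure D1:**
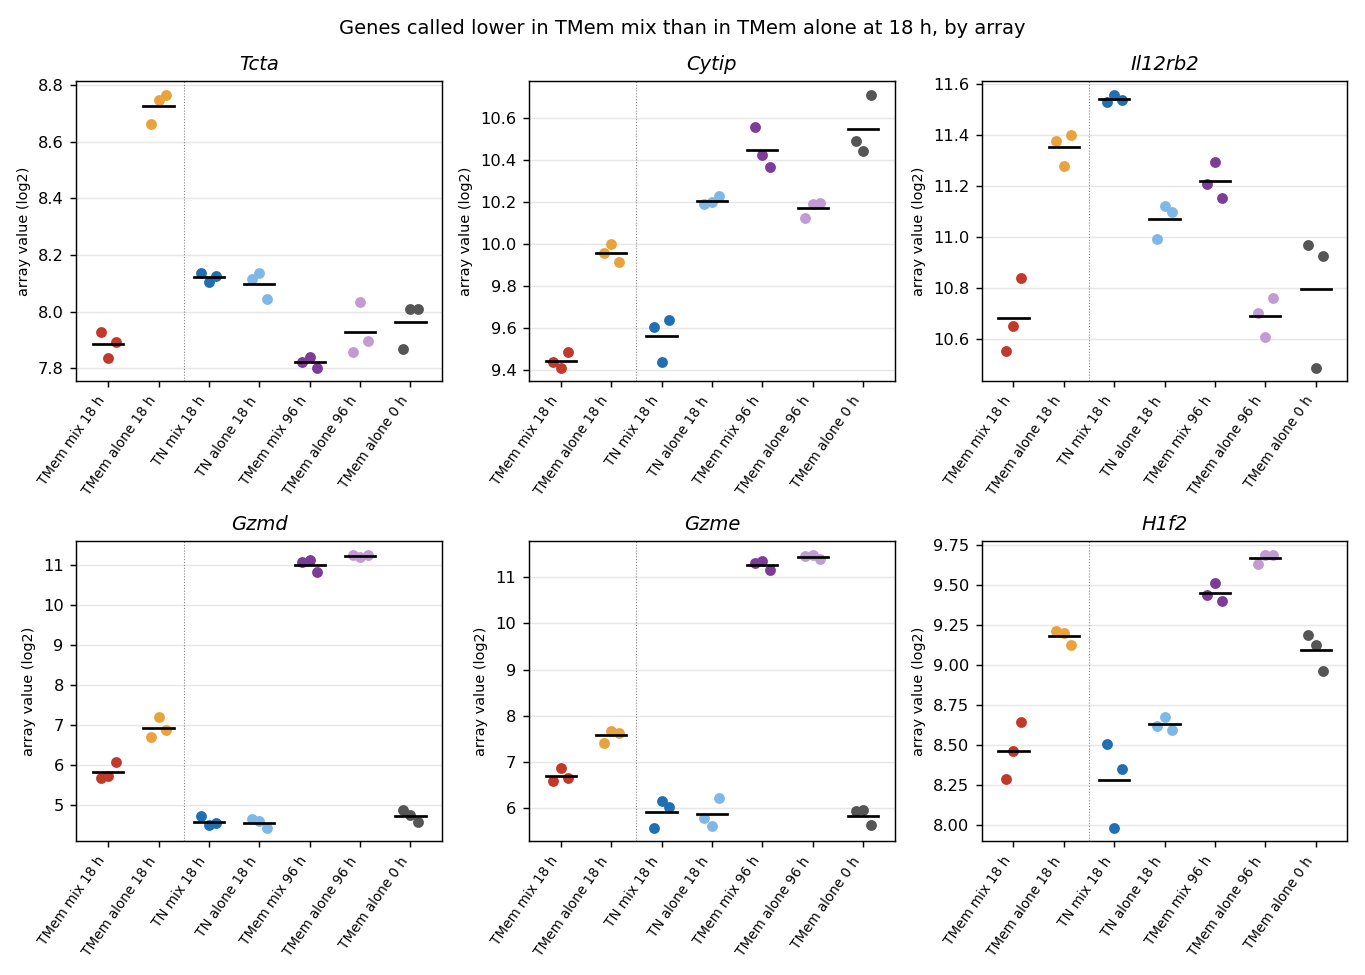
Log2 array values (y axis) of the 6 genes called lower in TMem mix than in TMem alone at 18 h, in 7 groups (x axis). Points are single arrays, bars are means of 3, and each panel has its own range. In every panel the TMem mix arrays at 18 h lie below the TMem alone arrays at 18 h, and Tcta stands at 8.66 to 8.77 in TMem alone at 18 h and at 8.14 or lower in the other groups drawn.

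Genes that mark effector and memory function showed small differences between the TMem groups, none past the test. Of 22 such genes followed in every comparison, 0 were called in TMem at 18 h, against 0.0301% of all genes. None of these 22 was called in any of the 17 alternatives. The master factors of effector cells, T-bet (Tbx21) and Eomes, lay at 10.66, 10.73 and 10.65 against 10.72, 10.61 and 10.65, and at 10.88, 10.96 and 10.82 against 10.85, 10.78 and 10.83, with overlapping groups. Their differences were 0.02 (interval -0.28 to 0.32) and 0.07 (-0.10 to 0.25). Il2, the T cell growth factor, lay at 10.12, 10.33 and 10.30 in TMem mix and 9.97, 9.98 and 9.98 in TMem alone. All mix arrays were higher, with a difference of 0.27 (interval -0.08 to 0.62). Interferon gamma (Ifng) lay at 12.93, 13.14 and 12.94 in mix and 13.14, 13.16 and 13.16 in alone, with no overlap. Its interval was wide (-0.15, -1.07 to 0.76), and its SD was 1.89 in TMem at 0 h. Among genes of quiescent T cells, Lef1 differed by -0.02 (-0.20 to 0.17), Klf2 by 0.11 (-0.15 to 0.37) and the IL-7 receptor chain Il7r by -0.22 (-0.54 to 0.11). The subunits of CD8, Cd8a and Cd8b1, differed by 0.09 and 0.02.

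In TN cells at 18 h several of these genes changed by more, and the difference of effects was tested directly. Over all genes 1031 (5.17%) differed in their effect of mixing between TMem and TN at 18 h, 744 with a higher and 287 with a lower effect in TMem. With each array centred on its median these were 410 and 457. Among the 22 followed genes 6 were called. Gzmb rose by 1.00 in TN (difference of effects -1.10, adjusted p = 3.60e-07), Eomes by 1.27 (-1.20, adjusted p = 2.56e-07) and Il2 by 1.37 (-1.10, adjusted p = 0.0049). Il7r fell by 1.61 in TN (difference 1.39, adjusted p = 1.72e-04), Lef1 by 0.93 (0.92, adjusted p = 2.46e-05) and Klf2 by 0.90 (1.01, adjusted p = 5.97e-04). For the remaining 16 genes no difference of effects was called, Tbx21 (-0.44, adjusted p = 0.27) and Ifng (-1.29, adjusted p = 0.296) among them.

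**Figure D2:**
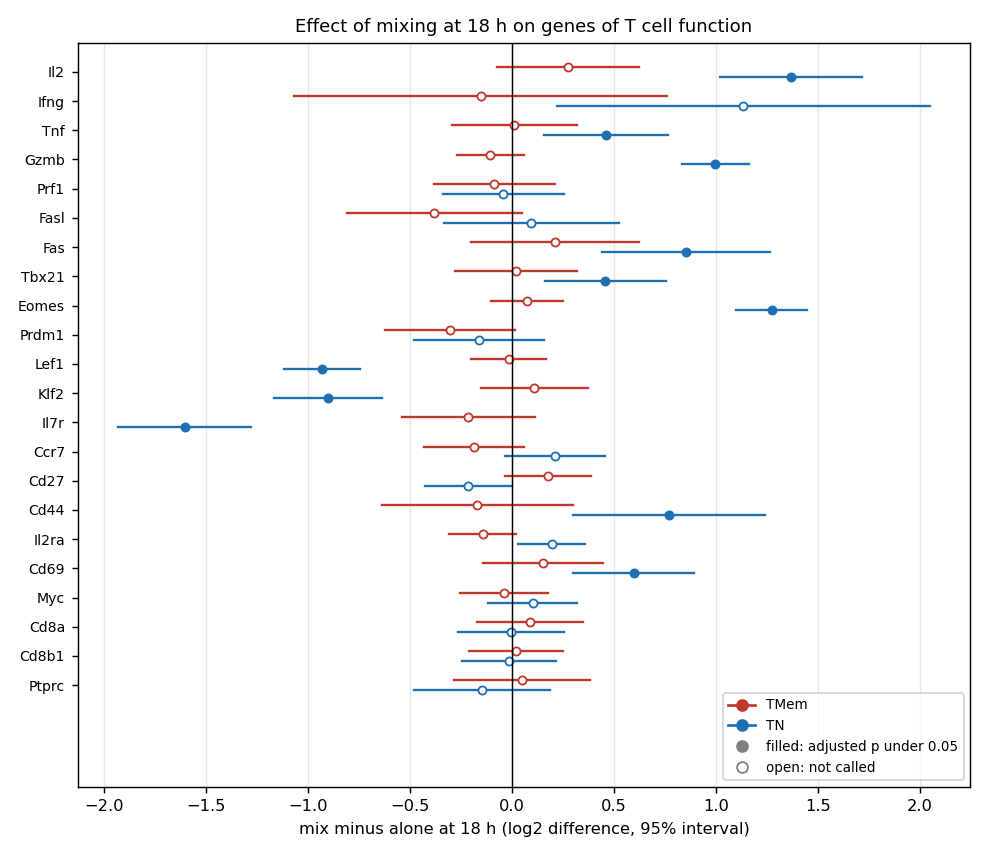
Mix minus alone at 18 h (x axis, log2 difference with 95% interval) for 22 genes of T cell function (y axis), in TMem (red) and TN (blue). Filled points passed an adjusted p under 0.05: all 22 TMem points are open, and in TN Il2, Gzmb, Eomes, Il7r, Lef1 and Klf2 are among the filled ones.

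The genes that mixing changed in TN cells were also followed as a whole in TMem cells. They were chosen by their values on the TN arrays, so those values describe the choice, and only the TMem values come from arrays that took no part in it. The 1257 genes that rose in TN by a median of 0.44 had a median difference of 0.03 in TMem, as all genes had. Of these, 821 had a positive and 436 a negative difference in TMem. The 1624 that fell in TN by a median of 0.46 had a median of -0.01 in TMem, with 775 positive and 849 negative differences. In the 31 genes that rose by at least 1 in TN the median in TMem was -0.12: 23 had a negative and 8 a positive difference, from -0.62 to 0.27. In the 85 that fell by at least 1 in TN the median in TMem was 0.03: 31 had a negative and 54 a positive difference, from -0.47 to 0.31. Tnfsf4, the gene of OX40 ligand, which costimulates T cells, is the gene at -0.62. It rose by 1.23 in TN, and lay at 7.73, 7.70 and 7.75 in TMem mix and 8.16, 8.44 and 8.45 in TMem alone (adjusted p = 0.0883; difference of effects -1.85, adjusted p = 1.48e-07). Bhlhe40, a transcription factor of cytokine-producing T cells, rose by 1.05 in TN and differed by -0.48 in TMem (interval -0.72 to -0.23, adjusted p = 0.34; difference of effects -1.52, adjusted p = 1.12e-06). Il3, a growth factor of blood cell precursors, rose in TN by 2.01 and differed by -0.24 in TMem (difference of effects -2.25, adjusted p = 0.017).

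**Figure D3:**
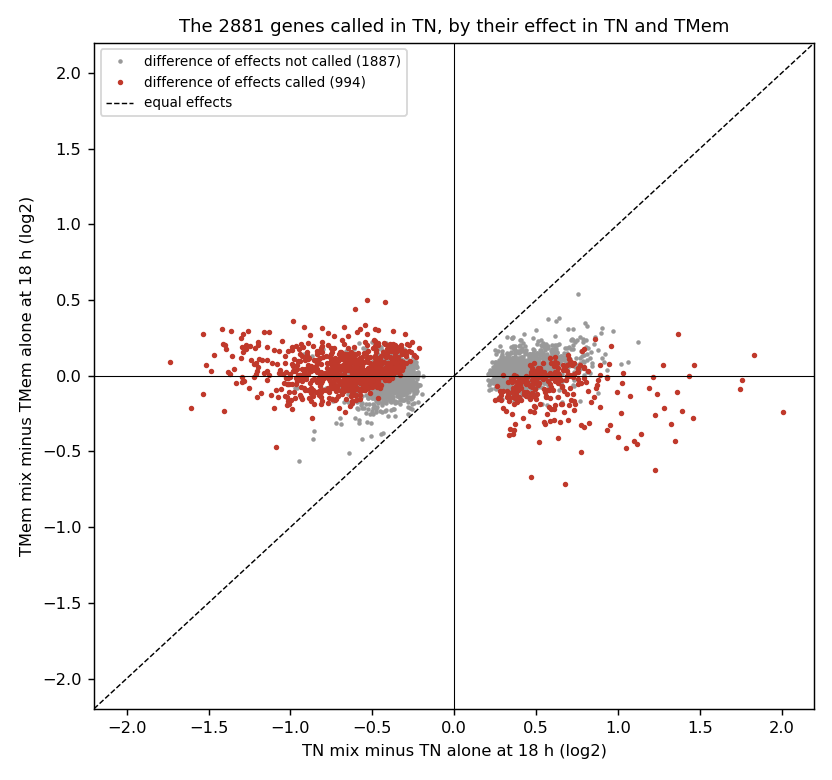
Each point is 1 of the 2881 genes called in TN at 18 h, with its mix minus alone difference in TN (x axis, log2) and in TMem (y axis, log2). Red points were also called for the difference of effects, which uses the TN arrays that chose the genes, and the dashed line marks equal effects. The points lie in a flat band: those at least 1 higher in TN spread from -0.62 to 0.27 in TMem and those at least 1 lower from -0.47 to 0.31.

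Genes of the response to low oxygen tended to lie lower in TMem mix, but none passed the test in the fit of all arrays. These genes are targets of HIF-1, which activated T cells use to raise glycolysis also with oxygen present. The list, like the others here, was chosen with earlier results of these data known, so its shares are descriptive. In 16 of 22 hypoxia genes the 3 mix arrays were all below the 3 alone arrays (72.7%, against 4.67% of all genes) and in 2 all above (9.09%, against 7.43%). An unadjusted p under 0.05 was reached by 11 with a lower and 1 with a higher value. The median difference was -0.22, against 0.03 over all genes, and lay between -0.27 and -0.18 over the 17 alternatives, arrays centred on their medians included (-0.26). In TN at 18 h the median of the list was 0.10 (3 genes rose and 4 fell), and in TMem at 96 h 0.18 (4 rose and 0 fell). Over all 19938 genes 1257 rose and 1624 fell in TN at 18 h, and 193 rose and 30 fell in TMem at 96 h.

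Ak4, a mitochondrial adenylate kinase, lay at 8.93, 8.87 and 8.93 in TMem mix and 9.77, 9.77 and 9.76 in TMem alone. Bnip3, which marks mitochondria for removal, lay at 9.21, 9.04 and 9.12 against 9.90, 10.05 and 9.87. Egln3, a prolyl hydroxylase that senses oxygen, lay at 8.82, 8.87 and 9.02 against 9.47, 9.40 and 9.40. In all 3 genes the groups did not overlap. Their differences were -0.86 (SE 0.25, adjusted p = 0.745), -0.82 (SE 0.22, adjusted p = 0.467) and -0.52 (SE 0.19, adjusted p = 1.0). Arrays outside the comparison entered these SE: the 3 TMem arrays at 0 h lay at 9.29, 8.49 and 7.28 for Ak4, at 10.79, 10.51 and 9.41 for Bnip3 and at 9.60, 9.13 and 8.14 for Egln3. In a fit without the 0 h arrays, which was chosen after the data were seen, the SE were 0.11, 0.10 and 0.07. All 3 were then called lower (adjusted p = 2.94e-04, 1.73e-04 and 4.79e-04), and likewise in a fit of the 6 arrays only (adjusted p = 9.37e-04, 0.00175 and 0.0254). The difference of effects between TMem and TN was called for Ak4 (-1.51, adjusted p = 0.0088), and for Bnip3 (-0.86, adjusted p = 0.118) it was not. Among members with overlapping groups were Ero1a (-0.06, interval -0.31 to 0.19) and P4ha2 (-0.07, -0.27 to 0.13). Ndrg1 (0.12, -0.05 to 0.30) and the carbonic anhydrase Car9 (0.25, 0.05 to 0.46) lay higher in TMem mix.

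The 250 bases before the starts of Bnip3 and Egln3 are shown because both genes lay lower together and hold ACGTG, the core of the site that HIF-1 binds. They lie at chr7:138909507-138909756 and chr12:54203875-54204124 (RefSeq, GRCm38.p6, minus strand), and capitals mark ACGTG on either strand.
Bnip3: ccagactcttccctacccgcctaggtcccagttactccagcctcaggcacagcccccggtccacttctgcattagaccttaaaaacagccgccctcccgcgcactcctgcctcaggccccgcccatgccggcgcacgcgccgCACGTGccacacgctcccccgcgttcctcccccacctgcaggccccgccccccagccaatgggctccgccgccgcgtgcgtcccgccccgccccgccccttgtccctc
Egln3: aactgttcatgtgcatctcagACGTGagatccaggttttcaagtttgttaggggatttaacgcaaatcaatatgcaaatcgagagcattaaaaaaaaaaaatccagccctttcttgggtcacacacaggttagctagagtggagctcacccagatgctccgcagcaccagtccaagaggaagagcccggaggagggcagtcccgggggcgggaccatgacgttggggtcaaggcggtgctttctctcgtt
In Bnip3 the 2 matches, 1 on each strand, overlap in a palindrome that is also a general E-box. ACGTG on either strand was found in this window in 13 of the 19 hypoxia genes with an entry and in 11 of 16 glycolysis genes. Of all 27025 genes with an entry 4998 hold it (18.5%), and of all windows of this length 16.6%. The hypoxia genes were taken here as targets of HIF-1, so their share describes the choice of list and not mixing. A match is not a measured binding site.

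Glycolysis genes lay lower in TMem mix in a similar way, and again none of 17 was called. In 8 of 17 the mix arrays were all below the alone arrays (47.1%, against 4.67% of all genes) and in 0 all above (against 7.43%). The median difference was -0.15 (between -0.18 and -0.10 over the alternatives). The lactate exporter Slc16a3 lay at 8.83, 8.69 and 8.57 in TMem mix and 9.28, 9.30 and 9.14 in TMem alone (-0.54, interval -0.91 to -0.18). The phosphofructokinase Pfkl, a control point of the pathway, lay at 8.94, 9.03 and 9.21 against 9.53, 9.51 and 9.59 (-0.48, -0.73 to -0.24). The glucose transporter Slc2a1 lay at 11.35, 11.28 and 11.27 against 11.63, 11.58 and 11.69 (-0.33, -0.59 to -0.07). These groups did not overlap. Pfkl and Slc2a1 were called without the 0 h arrays (adjusted p = 0.0046 and 0.0182) and not with the 6 arrays only (0.0587 and 0.182). Slc16a3 was called with the 6 arrays only (adjusted p = 0.0302) and not without the 0 h arrays (0.0581). The groups overlapped for the lactate dehydrogenase Ldha (-0.05, -0.20 to 0.10), the pyruvate kinase Pkm (-0.10, -0.29 to 0.08) and hexokinase 1 (Hk1, -0.04, -0.20 to 0.13). The effect on Pfkl (-0.75, adjusted p = 0.0064) and on hexokinase 2 (Hk2, -0.88, adjusted p = 0.0138) differed between TMem and TN, where Hk2 rose by 0.56. Of 31 genes of the respiratory chain 0 were called. In 6 the mix arrays were all above (19.4%, against 7.43% of all genes) and in 0 all below (against 4.67%). The median of the 31 genes, 0.04, was close to that of all genes (0.03). It was 0.01 with each array centred on its median, and 10 of the 31 had a negative difference.

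Clustered histone genes, whose transcripts accumulate while DNA is copied, were the list with the lowest median in TMem mix. All 12 measured members had a negative difference, and in 10 of 12 the mix arrays were all below the alone arrays (83.3%, against 4.67% of all genes). H1f2 was the 1 called, and the median was -0.28 (between -0.35 and -0.26 over the alternatives). The list's median was also negative in TMem at 96 h (-0.22, 2 genes fell and 0 rose) and in TN at 18 h (-0.08, 1 fell and 0 rose). The counts over all 19938 genes were 30 falls and 193 rises in TMem at 96 h. In TN at 18 h they were 1624 and 1257. H1f1 lay at 10.37, 10.38 and 10.54 in TMem mix and 10.96, 10.98 and 10.94 in TMem alone (-0.53, interval -0.87 to -0.20). H2bc3 lay at 9.46, 9.46 and 9.33 against 10.04, 10.05 and 9.98 (-0.60, -1.10 to -0.11). H3c15, which is not on the list and was picked for its values, lay at 5.69, 5.72 and 6.00 against 6.75, 6.67 and 7.06 (-1.02, adjusted p = 0.0905). It was near background in TMem mix. H2bc3 and H3c15 were called in both fits without the 0 h arrays and with the 6 arrays. Histone genes are near-identical copies, most without a poly(A) tail, so probes may not tell them apart. Small RNAs without such a tail, picked for their values, had all mix arrays below all alone arrays beside them: Snord118 lay at 9.30, 9.46 and 9.15 in TMem mix and 10.02, 10.30 and 10.11 in TMem alone (-0.84, adjusted p = 0.51). Rnu12 lay at 8.08, 8.15 and 8.19 against 8.79, 8.95 and 8.78 (-0.70, adjusted p = 0.29), and Rnu3a at 9.26, 9.51 and 9.54 against 9.91, 10.10 and 10.07 (-0.59, adjusted p = 1.0). Without the 0 h arrays Snord118 and Rnu12 were called, and with the 6 arrays all 3. The part of RNA preparation in the values of the histones was not tested.

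Other genes of the cell cycle differed less. Of 32 genes of S phase 0 were called, and in 3 all mix arrays were lower (9.38%, against 4.67% of all genes), with a median of -0.04. Of 30 genes of G2 and M phase 0 were called, and their median was -0.12. In 8 all mix arrays were lower (26.7%, against 4.67% of all genes) and in 0 all higher (against 7.43%). Hmmr, a spindle protein, differed by -0.39 (interval -0.67 to -0.12), and the mitotic factor Tpx2 by -0.27 (-0.50 to -0.03). Cdk1, the kinase that starts mitosis, differed by -0.21 (-0.47 to 0.04) and Cdc20 by 0.00 (-0.22 to 0.21).

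**Figure D4:**
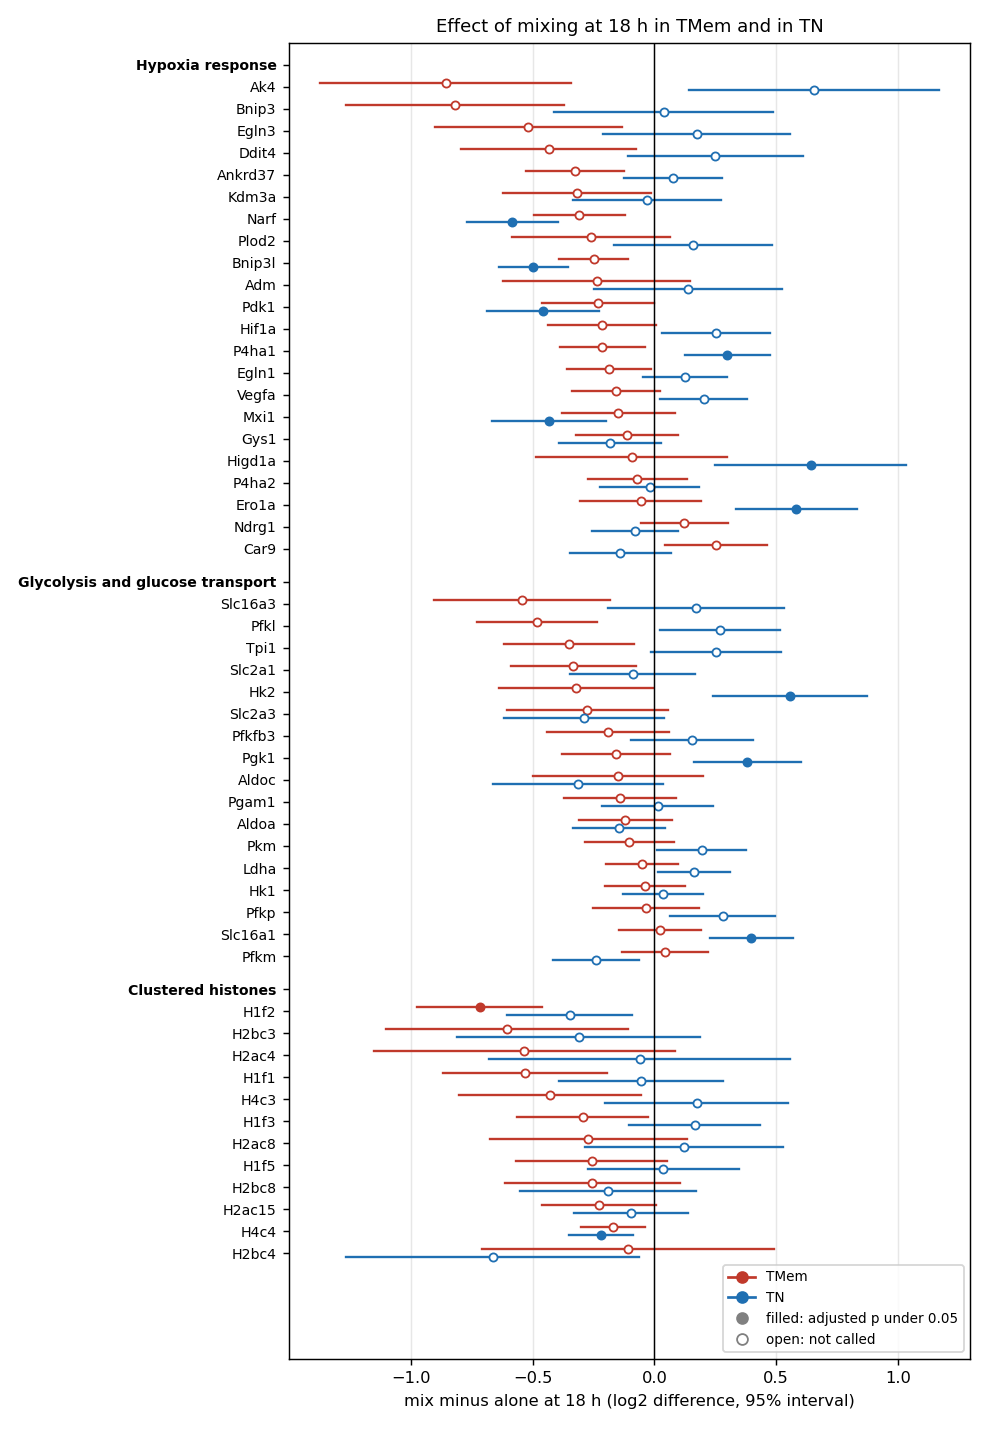
Mix minus alone at 18 h (x axis, log2 difference with 95% interval from the fit of all arrays) for all measured genes of 3 lists (y axis), in TMem (red) and TN (blue). Filled points passed an adjusted p under 0.05. Most red points lie left of zero, H1f2 is the only filled red point, and in TN points of the same lists lie on both sides.

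**Figure D5:**
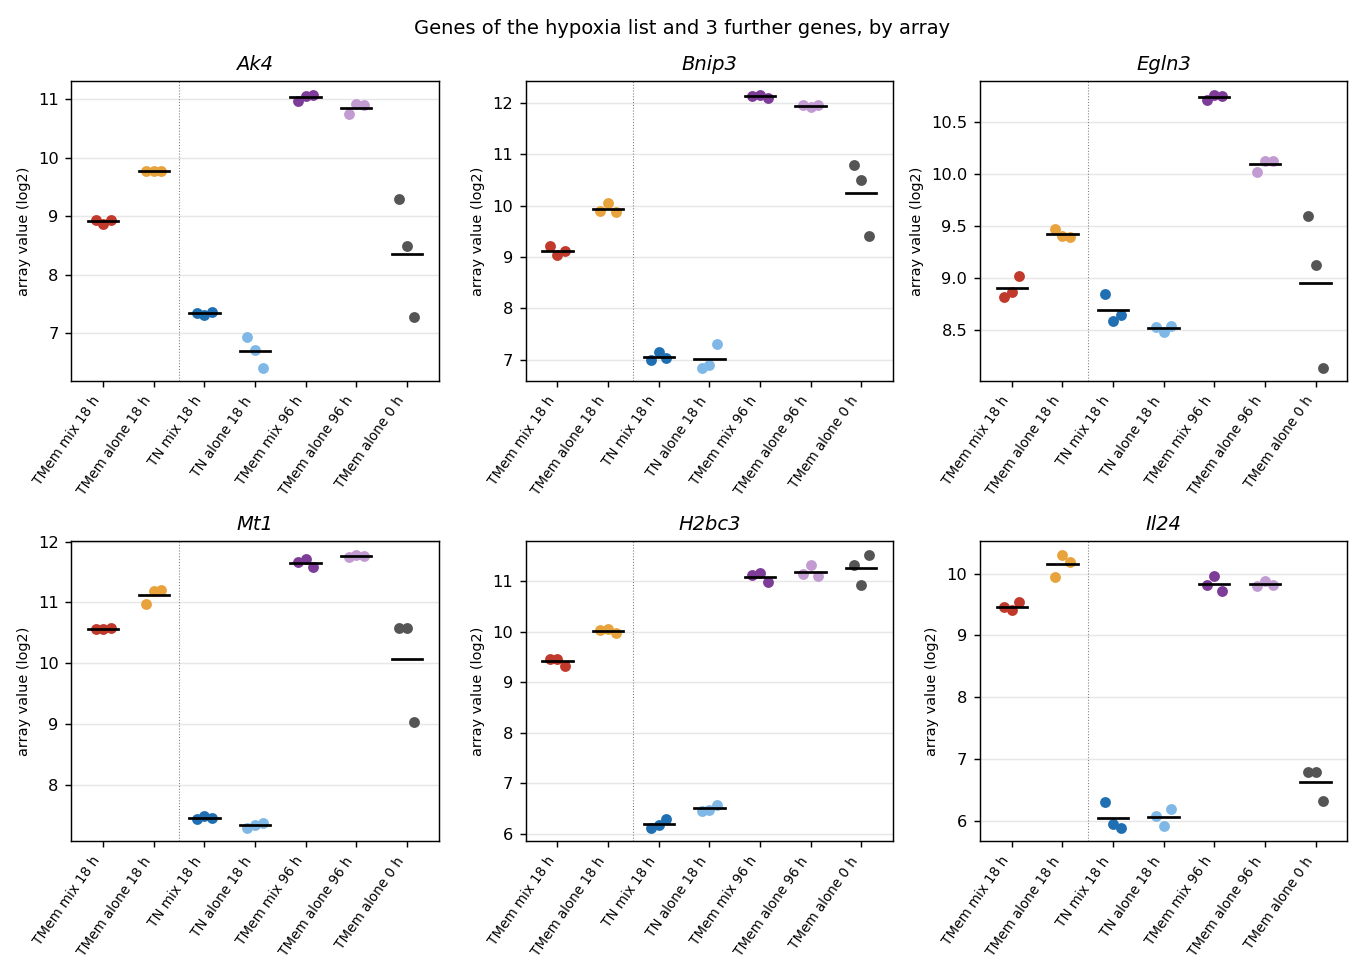
Log2 array values (y axis) of Ak4, Bnip3, Egln3, Mt1, H2bc3 and Il24 in 7 groups (x axis). Points are single arrays and bars are means of 3. The TMem mix arrays at 18 h lie below TMem alone at 18 h in each panel, while for Ak4, Bnip3, Egln3 and Mt1 the 3 arrays of TMem at 0 h spread widely (Ak4 from 7.28 to 9.29).

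Leaving out the 0 h arrays raised the number of called genes to 41, of which 38 were lower and 3 higher, and the fit of the 6 arrays alone called 36, 35 lower and 1 higher. Both fits rest on the same 6 arrays. They shared 24 genes, all lower and the 6 called in the fit of all arrays included, which are 24 of 41 and 24 of 36. Of those not yet described, the shared genes included the metallothionein Mt1, which binds zinc, at 10.56, 10.56 and 10.59 in TMem mix and 10.98, 11.19 and 11.21 in TMem alone (-0.56). They included the chemokine receptor Ccr4 (8.11, 7.95 and 8.11 against 8.59, 8.59 and 8.73; -0.58) and the gene of CD30, Tnfrsf8 (8.31, 8.44 and 8.36 against 8.85, 8.74 and 8.91; -0.46). Tent5a, chosen after its values were seen, lay at 8.71, 8.60 and 8.62 against 9.38, 9.26 and 9.25 (-0.65). The 3 genes called higher without the 0 h arrays were Slamf6, Pou2af1 and Ust. Pou2af1, a coactivator of octamer-binding factors, lay at 9.63, 9.71 and 9.70 in TMem mix and 9.18, 9.04 and 9.36 in TMem alone (0.49, adjusted p = 0.0189 without the 0 h arrays and 0.186 in the fit of all).

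Cytokine genes were not called in TMem at 18 h, 0 of 27, with a median of 0.00. The largest difference was that of Il24, an IL-10 family cytokine, at 9.46, 9.40 and 9.53 in TMem mix and 9.95, 10.30 and 10.19 in TMem alone (-0.68, SE 0.13, adjusted p = 0.0564). It was called in 8 of 17 alternatives, and its effect differed from that in TN by -0.66 (adjusted p = 0.033). Ccl5, which attracts effector cells, differed by -0.17 (interval -0.58 to 0.25). Among costimulatory receptors and ligands 0 of 22 were called. In 6 the mix arrays were all below (27.3%, against 4.67% of all genes) and in 3 all above (13.6%, against 7.43%). Slamf6, a receptor of less differentiated CD8+ T cells, lay at 9.93, 10.03 and 10.11 in TMem mix and 9.51, 9.76 and 9.69 in TMem alone (0.37, adjusted p = 0.112). At 96 h it rose by 0.91 with mixing. Of the genes of AP-1 and cell handling 0 of 18 were called, with a median of -0.13 (between -0.18 and -0.08 over the alternatives). In 8 the mix arrays were all below (44.4%, against 4.67% of all genes) and in 0 all above (against 7.43%). Junb differed by -0.35 (interval -0.56 to -0.14) and the antiproliferative gene Btg2 by -0.35 (-0.54 to -0.17). The handling genes Fos (-0.13), Fosb (-0.12) and Hspa1a (-0.02) had overlapping groups.

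Of the effector transcription factors 0 of 18 were called, with a median of -0.10. In 8 the mix arrays were all below (44.4%, against 4.67% of all genes) and in 2 all above (11.1%, against 7.43%). Id2, which supports effector cells, lay at 9.48, 9.65 and 9.36 in TMem mix and 9.90, 10.19 and 10.30 in TMem alone (-0.63, interval -1.08 to -0.19), and Blimp-1 (Prdm1) differed by -0.31 (-0.62 to 0.01). Genes of naive and memory cells leaned the other way, with 0 of 23 called and a median of 0.08 (between 0.04 and 0.09 over the alternatives). In 6 the mix arrays were all above (26.1%, against 7.43% of all genes) and in 2 all below (8.70%, against 4.67%). Dapl1, a gene of naive and early memory cells, lay at 10.13, 10.02 and 10.15 in TMem mix and 9.46, 9.96 and 9.82 in TMem alone (0.35, interval 0.12 to 0.58). Bcl6 differed by 0.29 (0.03 to 0.55) and Il6ra by 0.28 (-0.01 to 0.56). The chromatin organiser Satb1 went the opposite way (-0.39, -0.57 to -0.21). In TN the same list had 1 rise and 13 falls, against 1257 rises and 1624 falls among all 19938 genes.

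Il12rb2 was the 1 called gene of 23 on the list of the IL-2 receptor and STAT5 response (median -0.07), and 0 of 17 genes of metallothioneins and zinc transport were called (median 0.00). A further 15 pathway lists held 0 called genes in TMem at 18 h, where 0.0301% of all genes were called. A count of 0 therefore does not set these lists apart. They cover chemokine receptors, inhibitory receptors, receptor signalling in its early genes and its proximal parts, death receptors, the BCL2 family, sterols, fatty acids, ribosome assembly, ribosomal proteins, the proteasome, p53, amino acid starvation, the unfolded protein response and NK-type receptors. On the list of chemokine and homing receptors, S1pr1, which lets T cells leave lymph nodes, differed by 0.20 (interval 0.03 to 0.37). The medians of the 15 lists lay between -0.11 (NK-type receptors) and 0.08 (proteasome subunits). In TN 20 of 30 ribosome assembly genes and 17 of 32 proteasome subunits rose, against 1257 of all 19938 genes. The medians of these lists were 0.01 and 0.08 in TMem against 0.36 and 0.35 in TN. The inhibitory receptors Pdcd1 and Lag3 were not called. The type I interferon list had a median of 0.02 (0 called) and the list of interferon gamma response and MHC class I 0.07 (0 called).

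Genes that set TMem apart from TN before stimulation were read on the 18 h arrays, which took no part in choosing them. Of 254 genes at least 2 higher in TMem than in TN at 0 h, 78 had all mix arrays below the alone arrays at 18 h (30.7%, against 4.67% of all genes) and 4 all above (1.6%, against 7.43%), with a median difference of -0.11 and Il12rb2 as the 1 called lower. Of 69 genes at least 2 higher in TN at 0 h, 16 had all mix arrays below (23.2%) and 10 all above (14.5%), both above the shares of all genes, with a median of 0.02 and H1f2 as the 1 called lower. Their median levels were 6.97 in TMem mix and 6.80 in TMem alone, against 8.11 in TN mix.

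Markers of the sort and of other cells were compared beside these results. Xist, which only cells with 2 X chromosomes transcribe strongly, lay at 5.92, 5.63 and 6.02 in TMem mix and 5.42, 5.55 and 5.14 in TMem alone, near background in both. All mix arrays were higher (0.49, interval -0.03 to 1.01). In TN mix it lay at 10.95, 11.02 and 10.95, and on unlogged values the rise from TMem alone to TMem mix was 0.85% of the way to TN mix. The Y-linked gene Eif2s3y lay at 9.22, 9.33 and 9.23 in TMem mix and 9.21, 9.05 and 9.38 in TMem alone, although the mice are labelled female throughout. In TN at 18 h Eif2s3y had means of 8.36 in mix and 8.14 in alone beside high Xist, and 4.19 at 0 h. The part of TN cells in the TMem mix arrays was not tested. Lists of B cells, macrophages and related cells, mast cells and basophils, NK cells, CD4 T cells and erythroid cells and platelets held 0 called genes of 15, 24, 12, 10, 10 and 10. Their medians were 0.05, 0.05, 0.05, 0.06, 0.05 and 0.09, and the mean level of each list overlapped between the groups. In TMem mix and TMem alone this level was 6.16 to 6.29 and 6.10 to 6.23 for B cells, 6.31 to 6.42 and 6.28 to 6.35 for macrophages and related cells, and 5.65 to 5.82 and 5.63 to 5.74 for mast cells. It was 6.32 to 6.41 and 6.25 to 6.34 for NK cells, 7.31 to 7.38 and 7.31 to 7.33 for CD4 T cells, and 6.62 to 6.76 and 6.56 to 6.67 for erythroid cells. In TMem mix 6, 11, 6, 4, 1 and 1 genes of these lists were near background.

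At 96 h, on other arrays, mixing changed 223 genes of TMem cells (1.12%), 193 higher and 30 lower, or 105 to 148 when TMem mix replicates 1 or 2 or any of the TMem alone replicates at 96 h was left out. The effect differed between 96 h and 18 h in 39 genes (0.196%), all with a higher effect at 96 h. The number was 18 to 25 without replicates 1 or 2 of TMem mix at 18 h or 96 h, replicates 2 or 3 of TMem alone at 18 h or replicates 1 or 3 of TMem alone at 96 h. Il12rb2, Cytip and Tcta are the genes called at 18 h among them. Of the hypoxia list 4 of 22 were called for this difference, Ndrg1 (0.79, adjusted p = 0.0012) and P4ha2 (0.74, adjusted p = 0.0156) among them, and of the costimulatory list 3 of 22, Slamf6 included (0.54, adjusted p = 0.0275). Ak4 (1.04, adjusted p = 0.516) and Bnip3 (1.00, adjusted p = 0.348) were not called for it. Dapl1 rose by 1.12 and Cd27 by 0.78 with mixing at 96 h, and the difference from 18 h was called for Dapl1 (0.77, adjusted p = 0.032) and not for Cd27 (0.61, adjusted p = 0.0945).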

How the data were processed

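The deposited table held log2 probe set values of 30 arrays. RMA and Partek are named, without versions, in the submitters' processing notes, and their settings are not given in the sources at hand. Array medians of the deposited log2 values lay between 6.76 and 6.94 and values between 2.047 and 14.163. Of 35556 rows, 21789 named 1 gene, 1621 several and 12146 none. Of the rows with 1 gene, 21698 matched the RefSeq gene table, from which symbols were updated, and 91 did not. For 999 genes with several rows the row with the highest mean stood for the gene, which left 19938 genes.

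Group means of all 30 arrays were fitted with limma 3.58.1 in R 4.3.3 (lmFit, eBayes), with groups taken from the titles, and p-values were Benjamini-Hochberg adjusted over all genes. The method was tested on simulated data in which a gene had the same spread in all groups. That test therefore did not cover the wider spread at 0 h. Differences of effects are contrasts in the same fit. Of 846 list entries 771 matched a gene, and of 24 followed genes 22 did. Members and lists were chosen with earlier results of these data known. Named were the largest called changes without overlap of the groups, genes called for a difference of effects, the 5 or fewer genes of a list that had its smallest adjusted p, and the followed genes. Beyond this rule Il3, Ccl5, Gzmf, Gzmg, Fos, Fosb, Hspa1a, Hk1, Pkm, Ldha, Egln3, Ndrg1, P4ha2, Car9, Ero1a, Cdk1, Cdc20, Eif2s3y, H3c15, Tent5a, Pou2af1, Ust, Snord118, Rnu12 and Rnu3a were chosen after their values were seen. Promoters were those of RefSeq for GRCm38.p6, aligned with Biopython 1.88. Alternatives covered the arrays fitted, array weights, normalization, filtering, the row chosen per gene, a replicate block and leaving out each array. The fit without the 0 h arrays was chosen after seeing the data. The number of arrays limits the precision.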

Additional observations from a re-analysis of the deposited data

Results flagged for a closer look

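The results here are differences of effects, each tested as a contrast in the limma fit of all arrays. The effect of mixing at 18 h differed between TMem and TN for 1031 genes. Among the genes called in TMem, the effect in TMem minus that in TN was -1.13 for Gzmd, -0.92 for Gzme, -0.86 for Tcta and -1.14 for Il12rb2. Among the followed genes it was -1.1 for Il2, -1.1 for Gzmb, -1.2 for Eomes, 0.92 for Lef1, 1.01 for Klf2 and 1.39 for Il7r. Gzmd and Gzme lay at or near background in TN, where a fall could hardly have been measured. In TMem the effect differed between 96 h and 18 h for 39 genes. The effect at 96 h minus that at 18 h was 0.73 for Tcta, 1.2 for Il12rb2 and 0.79 for Cytip.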

How the results depend on the processing

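Of the 6 genes called in TMem at 18 h, Tcta was called in all 17 alternatives, and the others lost the call in 3 to 6. The number called lower was 35 with only the arrays compared (1 higher), 14 with the 12 arrays at 18 h, 82 with array weights (18 higher), 10 with median centring, 38 without the 0 h arrays (3 higher) and 1 to 6 when 1 array was left out. Quantile normalization called 1 higher. Deviations of TMem mix and TMem alone arrays at 18 h from their group means were correlated across genes. Same-numbered arrays had correlations of 0.096, -0.195 and 0.255, and arrays with different numbers -0.328 to 0.223. With 3 arrays per group these values cannot decide whether the numbers pair the samples. With a replicate block the count stayed at 6 lower, and with the block and only the arrays compared it was 40 lower and 2 higher. TN at 18 h gave 4853 calls with array weights, 1912 with the block and only the arrays compared, and 1897 to 2496 without 1 array. For TMem at 96 h these counts were 906, 118 and 105 to 170, with 435 for only the arrays compared and 507 without the 0 h arrays. The difference of effects between TMem and TN gave 1961 calls with only the arrays compared, which are the 12 at 18 h, 2941 with array weights, 1554 with the block and only the arrays compared, and 2089 without the 0 h arrays. That between 96 h and 18 h gave 196, 330, 139 and 190 in the same order, 61 with quantile normalization and 18 to 29 without 1 array. The causes were not tested.

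Of 203 genes followed through the alternatives, 10 changed sign in at least 1, none of them called. With array weights Mcpt8 was at -0.03, and with median centring Tnf was at -0.024, Tbx21 at -0.015 and Cd8b1 at -0.015. When 1 array was left out the differences ranged from -0.066 to 0.241 for Mcpt8, -0.012 to 0.114 for Gata3, -0.179 to 0.026 for Uty, -0.229 to 0.031 for Kdm5d, -0.059 to 0.057 for Tnf. They ranged from -0.006 to 0.05 for Tbx21, -0.051 to 0.013 for Lef1, -0.116 to 0.027 for Myc, -0.019 to 0.068 for Cd8b1, -0.031 to 0.11 for Ptprc.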
